A study of Mus musculus with 9 samples.

Results

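Cd163, Cd209a, Cd209b, Cd209d, Cd209f, Folr2 and Vsig4 encode surface receptors by which tissue macrophages take up or bind their ligands, and their mRNA levels were examined in epididymal white adipose tissue (WAT) of mice on 3 diets. The 7 genes were taken by their symbols in the platform annotation, with every probe that carries one of these symbols, out of 8699 named genes measured. All 10 of their probes were detected well enough to be kept. The genes were chosen by their log2 signals and group differences on the same 9 arrays, so these differences are given as a description, without a test.

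Male C57BL/6J mice arrived at 4 weeks of age, were kept on the AIN-76 semipurified diet for 1 week, and were then fed for 16 weeks. One group received a normal diet (ND), the HFD group a high-fat diet with 20% fat and 1% cholesterol per the labels, and the LU group the same HFD with 0.005% (w/w) luteolin, a plant flavonoid. The labels give 10 mice per group, while the methods give other numbers for the HFD and LU groups and describe the fat content in other terms. RNA of whole fat was hybridized to 3 Illumina MouseWG-6 v2 arrays per group, and the methods describe pooled RNA sets but not how many mice went into a set. The spread between the 3 arrays of a group may be smaller than that between mice.

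Resident macrophages of fat lie along the vessels and between the adipocytes and clear hemoglobin, dead cells and microbes through scavenger receptors and lectins. CD163 is the scavenger receptor for complexes of hemoglobin and haptoglobin. The CD209 proteins are C-type lectins of macrophages and dendritic cells that bind sugars rich in mannose or fucose, and the mouse has a cluster of such genes where humans have few. FOLR2, the beta form of the folate receptor, and VSIG4, a receptor for fragments of complement component C3, are likewise marks of resident macrophages in many tissues. In obesity, macrophages recruited from the blood accumulate around dying adipocytes and express a different set of genes for lipid uptake and lysosomal breakdown.

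The promoters of Cd209f and Cd209g are shown because these neighbors differed in their measured change from HFD to LU, though Cd209g was near the background. Those of Cd209b and Cd209d are shown for the longest stretch of shared letters among the 7 genes. Those of Folr2 and Vsig4 are shown because both genes were highest in HFD. The sequences were taken from RefSeq (GRCm38.p6), which held windows for all 7 genes, from 250 bases before to 50 bases after each transcription start, with 2 starts for Folr2. Only the 250 bases before the start of each window were compared and searched. The following stretches lie before the start, with capitals for the run of letters that both genes of a pair share. Cd209f (chr8:4105765-4105944, minus strand) and its neighbor Cd209g (chr8:4134556-4134735, plus strand) share 154 identical bases, a run that no other of the 32851 windows holds on either strand (2 of 32851, 0.00609%).
Cd209f: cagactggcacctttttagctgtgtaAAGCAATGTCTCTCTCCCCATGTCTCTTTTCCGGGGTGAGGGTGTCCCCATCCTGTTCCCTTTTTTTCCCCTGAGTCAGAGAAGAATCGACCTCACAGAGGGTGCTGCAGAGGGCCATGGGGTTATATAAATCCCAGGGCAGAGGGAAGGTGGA
Cd209g: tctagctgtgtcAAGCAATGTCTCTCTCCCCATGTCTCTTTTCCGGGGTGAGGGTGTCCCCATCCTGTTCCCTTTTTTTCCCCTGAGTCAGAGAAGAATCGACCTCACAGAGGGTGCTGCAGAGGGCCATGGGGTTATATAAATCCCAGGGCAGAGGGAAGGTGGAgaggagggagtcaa
Among the 21 pairs of the 7 genes the longest shared run on the same strand was 12 bases, between Cd209b (chr8:3927032-3927091, minus strand) and Cd209d (chr8:3878690-3878749, minus strand), at the same distance from both starts and in no other window (0.00609%).
Cd209b: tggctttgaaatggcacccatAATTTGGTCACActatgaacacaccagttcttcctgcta
Cd209d: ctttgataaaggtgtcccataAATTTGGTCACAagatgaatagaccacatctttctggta
The next longest was 11 bases, GGAAGTGTGTG, between Folr2 (chr7:101857191-101857290, minus strand) and Vsig4 (chrX:96293439-96293538, minus strand), which 9 of the 32851 windows hold on either strand (0.0274%).
Folr2: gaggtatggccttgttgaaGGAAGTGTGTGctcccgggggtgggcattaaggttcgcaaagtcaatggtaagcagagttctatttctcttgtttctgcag
Vsig4: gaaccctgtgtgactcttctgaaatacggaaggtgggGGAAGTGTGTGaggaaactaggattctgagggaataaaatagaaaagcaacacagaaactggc
The remaining 19 pairs shared runs of 7 to 10 bases. These runs were found by comparing the letters alone and are a description of the sequences. The run of Cd209f and Cd209g ends at the start of Cd209f, where the compared stretch ended, so its full length was not measured.

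The arrays of each group resembled each other more than those of the other groups, and none stood apart. Between 42.2% and 43.8% of the probes were detected per array, and the weakest detected signals lay at 7.79 to 7.83 on the log2 scale. All values below are log2 signals after quantile normalization of the 9 arrays. Over all probes 7677 of 20558 differed between HFD and ND, 5747 between LU and HFD and 6137 between LU and ND by limma at an adjusted p under 0.05. Of those between LU and HFD, 2996 were higher and 2751 lower in LU, and with median scaling 3474 were higher and 1869 lower. Adiponectin (Adipoq), the hormone that defines adipocytes, was detected on all arrays, at means of 15.89, 15.77 and 15.86 in ND, HFD and LU.

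The scavenger receptor gene Cd163 was highest in ND, lower in HFD and lowest in LU. Its log2 signals were 11.44, 11.72 and 11.65 on the ND arrays, 10.91, 11.01 and 11.27 on the HFD arrays and 10.74, 10.62 and 10.72 on the LU arrays. The 3 groups did not overlap, and HFD replicate 3 was the HFD array closest to ND. The ND mean was 11.60 ± 0.15 (SD, n = 3 arrays), the HFD mean 11.06 ± 0.19 and the LU mean 10.69 ± 0.06, with the same n. The difference was -0.54 from ND to HFD and -0.37 from HFD to LU, each with a standard error of 0.09, so that the LU signal was 53.2% of that in ND.

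The 4 Cd209 genes of the set followed the same order of groups. The lectin gene Cd209f was at 12.24, 12.25 and 12.36 in ND, 11.84, 11.78 and 11.95 in HFD and 10.81, 11.10 and 11.09 in LU. Every HFD array lay below every ND array and every LU array below every HFD array, and the step to LU was the larger one, at -0.86 (standard error 0.08) after -0.43 (standard error 0.08). LU replicate 1 was the lowest array. In LU the Cd209f signal was 41.0% of that in ND.

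Cd209b, the lectin of splenic marginal zone macrophages that binds microbial polysaccharides, was read by 3 probes. The brightest gave 10.51, 10.66 and 10.31 in ND, 9.78, 9.93 and 9.89 in HFD and 9.10, 9.12 and 8.97 in LU. The groups again did not overlap, and the mean difference was -0.63 from ND to HFD and -0.80 from HFD to LU (standard error 0.08 for both). The other probes of the gene kept the order of the groups at smaller sizes, with -0.51 and -0.44 in HFD against ND and -0.65 and -0.58 in LU against HFD. At -1.43 in LU against ND, the brightest probe of Cd209b had the largest LU against ND difference of the 7 genes and stood 12 from the lowest of the 8699 named genes. The other probes of Cd209b gave -1.16 and -1.02 in this comparison, smaller in size than the -1.29 of Cd209f.

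Cd209d was nearly constant within ND, at 9.83, 9.85 and 9.84, and lower in HFD, at 9.33, 9.48 and 9.51. In LU it was lower again, at 8.79, 8.77 and 8.85. Its differences were -0.40 from ND to HFD and -0.64 from HFD to LU (standard error 0.06 for both). Cd209a, the mouse lectin most often compared with human DC-SIGN and known from dendritic cells, was near the background, at 8.37, 8.35 and 8.47 in ND, 8.17, 8.12 and 8.28 in HFD and 7.77, 7.80 and 7.82 in LU. Only 1 of the 3 LU arrays detected it, so its level in LU lay at the background of the arrays. Its differences of -0.21 from ND to HFD and -0.39 from HFD to LU (standard error 0.06 for both) became -0.42 and -1.01 after background correction.

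Folr2 and Vsig4 went the other way with the HFD. Folr2 was at 11.68, 11.61 and 11.29 in ND, 12.19, 12.14 and 11.98 in HFD and 11.12, 10.95 and 11.08 in LU. All HFD arrays lay above all ND arrays, by 0.57 on average, and all LU arrays lay below both other groups, at -1.05 against HFD and -0.48 against ND (standard error 0.09 for each). Its dimmer probe gave 0.61, -1.13 and -0.52 for the same comparisons.

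Vsig4 had the largest differences of the 7 genes, upward with the HFD and downward with luteolin. Its log2 signals were 8.99, 8.95 and 8.61 in ND, 10.05, 9.91 and 9.79 in HFD and 8.64, 8.52 and 8.55 in LU. This is 1.06 in HFD against ND, or 2.09-fold, and -1.34 in LU against HFD (standard error 0.10 for both). In LU it was at 39.4% of its HFD signal, and 4 of the 8699 named genes had a lower value in this comparison. The LU and ND arrays overlapped, since ND replicate 3 lay below LU replicate 1, and the mean difference was -0.28 (standard error 0.10).

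**Figure D1:**
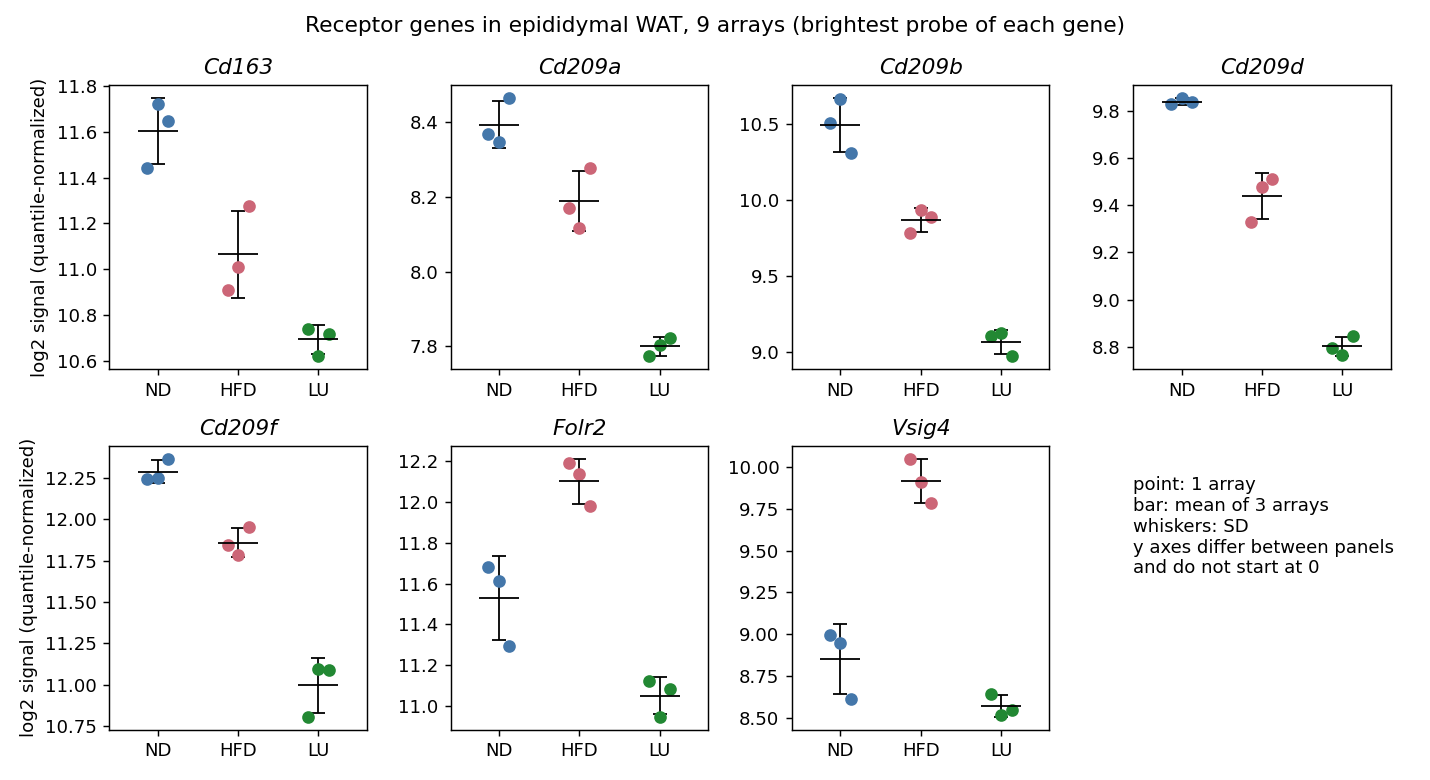
Log2 signal of the brightest probe of each of the 7 receptor genes on the 9 arrays, with 1 point per array, the mean of 3 arrays as a horizontal bar and whiskers for the SD, and a separate y axis per gene. Cd163 and the 4 Cd209 genes step down from ND over HFD to LU, while Folr2 and Vsig4 are highest in HFD.

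In HFD against ND the groups were apart for all 7 genes, 5 lower in HFD and 2 higher, where 32.2% and 28.1% of the 8699 named genes were apart in these directions. In LU against HFD all 7 were lower without overlap, where 27.4% of the named genes were, and in LU against ND this held for 6 of 7, where 26.2% of the named genes were. At limma's adjusted p under 0.05 the counts were 5 lower and 2 higher in HFD against ND, against 27.7% and 25.2% of the named genes, and 7 lower in both LU comparisons, against 18.2% (LU against HFD) and 18.6% (LU against ND). In the last comparison Vsig4 was not called after background correction or median scaling, or without any 1 of several arrays. Nothing is read from these counts, since the genes were chosen with these comparisons known. The HFD arrays stand in the first and the second comparison, which therefore share their error. The median difference of the 7 genes was -0.40 with the HFD, -0.80 in LU against HFD and -0.91 in LU against ND, where the medians over all named genes were -0.03, 0.02 and 0.01. As these are whole-tissue samples, fewer macrophages of a kind and less mRNA per macrophage cannot be told apart.

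**Figure D2:**
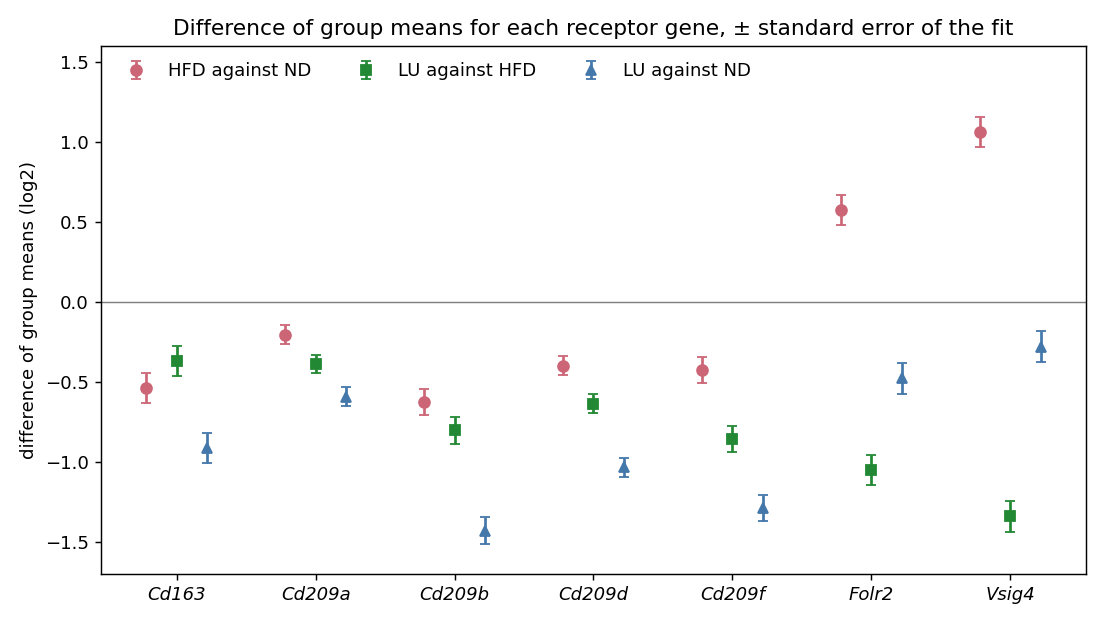
Difference of group means on the log2 scale for the brightest probe of each of the 7 receptor genes, with the standard error of the limma fit as bars, with circles for HFD against ND, squares for LU against HFD and triangles for LU against ND. All LU values lie below 0, whereas in HFD against ND Folr2 at 0.57 and Vsig4 at 1.06 lie above 0 and the other 5 genes below it.

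Within the groups the brightest probes of the genes did not all vary together, which the order of the groups does not show. After the group mean was subtracted, Folr2 and Vsig4 varied together over the 9 arrays (Pearson's r = 0.96). Both were lowest on replicate 3 of ND and of HFD, though not of LU, where Folr2 deviated by -0.24 and -0.12 and Vsig4 by -0.24 and -0.13 from the group mean. On these same arrays Cd209a was highest in its group, at 0.07 and 0.09 above the group mean, and so was Cd209f, at 0.08 and 0.09. Cd209a and Cd209f accordingly varied together (r = 0.71) and against Folr2 (r = -0.77 and r = -0.64) and Vsig4 (r = -0.76 and r = -0.62). Cd163 varied with Cd209d (r = 0.71), while Cd209b varied against Cd209a (r = -0.59) although both had the same order of groups. Over the 21 pairs the median r was 0.17, with 11 pairs above 0, whereas without subtracting the group means the median was 0.91. These values share the arrays and the normalization, rest on 9 arrays in 3 groups, and are a description.

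**Figure D3:**
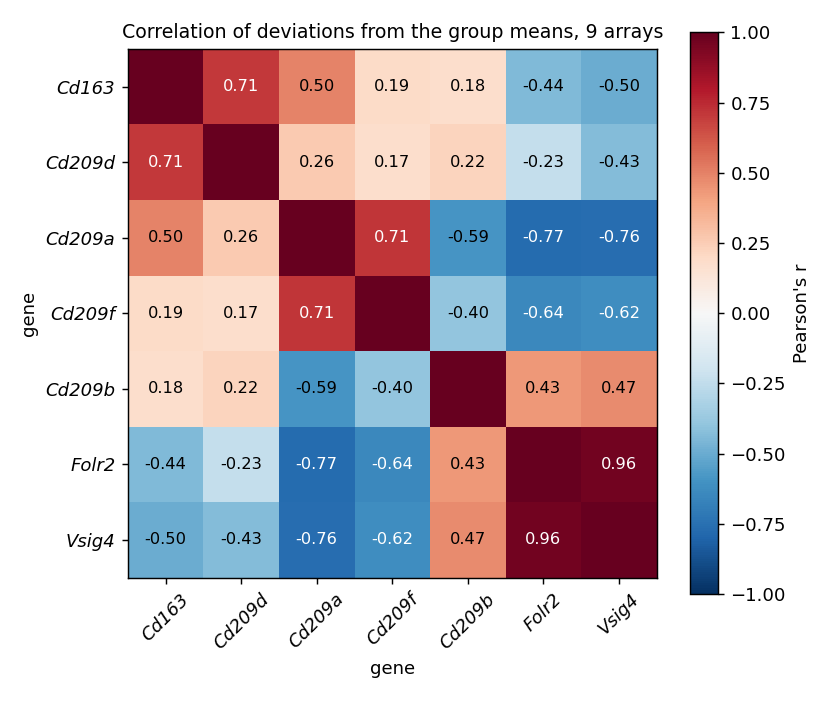
Pearson's r between the brightest probes of the 7 receptor genes after subtraction of each group mean, over 9 arrays, with red above 0 and blue below 0. Folr2 and Vsig4 form a pair at 0.96 and are negative against Cd163, Cd209a, Cd209d and Cd209f.

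The other measured genes of the Cd209 cluster on chromosome 8 were lower in HFD but did not pass in LU against HFD. In the annotation the order along the chromosome is Cd209a, Cd209e, Cd209d, Cd209b, Cd209c, Cd209f and Cd209g, and Cd209e was not analysed here. Cd209c was dim, at means of 8.18 in ND, 7.90 in HFD and 7.90 in LU, and fell by 0.28 with the HFD (standard error 0.06, adjusted p = 0.0026 by limma). Its difference between LU and HFD was 0.00 (standard error 0.06, adjusted p = 0.98). Cd209g was detected on all 3 ND arrays, 1 LU array and no HFD array. It was at least 1.24-fold lower in HFD than in ND (adjusted p = 5.7e-05 by limma, measured means 8.11 and 7.65). Its difference between LU and HFD was 0.08 (standard error 0.06, adjusted p = 0.33), where Cd209f, with which it shares the promoter run shown above, differed by -0.86. Cd209c and Cd209g were both close to the background in HFD, so a further decrease could hardly be measured. The sequences of the probes were not analysed here, so whether a probe of one Cd209 gene also binds the mRNA of another was not tested. Folr1, the alpha form of the folate receptor and the neighbor of Folr2, was detected on 1 ND array, 1 HFD array and no LU array. Cd163l1, a relative of Cd163 that marks some T cells, was at 8.61, 8.79 and 8.69 in ND, HFD and LU and passed in no comparison (adjusted p = 0.065 for the HFD, 0.35 for LU against HFD and 0.41 for LU against ND, by limma).

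Other genes of resident macrophages were mostly lower in LU. Of 18 measured genes of such a list, 13 fell and none rose in LU relative to HFD, where 18.2% of all named genes fell and 19.7% rose. With median scaling 10 fell and none rose. Relative to ND 12 were lower in LU and 1 was higher, where 18.6% of all named genes were lower and 21.1% higher. With the HFD 5 rose and 6 fell, close to the shares over all named genes, of which 25.2% rose and 27.7% fell. The medians were -0.38 against HFD, -0.36 against ND and -0.10 for the HFD. Lyve1, the hyaluronan receptor of perivascular macrophages and lymphatic vessels, fell by 0.39 with the HFD (adjusted p = 0.00067 by limma) and by 1.32 in LU against HFD (adjusted p = 1e-06). F13a1, the A chain of coagulation factor XIII, fell by 0.21 with the HFD (adjusted p = 0.012) and by 0.77 in LU (adjusted p = 1.3e-05). Retnla, a secreted protein of alternatively activated macrophages, fell by 0.71 with the HFD (adjusted p = 4.3e-05), the largest decrease of the list in that comparison, and was 0.96 below ND in LU (adjusted p = 1.2e-05). Its difference in LU against HFD was -0.25, at the threshold (adjusted p = 0.05 by limma). That call was lost without HFD replicate 2 or 3 or any LU array. By contrast Mrc1, the mannose receptor, Pf4, platelet factor 4, and Ccl8, a monocyte chemokine, rose with the HFD, by 0.37, 0.38 and 0.82 (adjusted p = 0.00045, 0.0018 and 0.00098 by limma). In LU against HFD their differences were -0.77, -0.69 and -0.98 (adjusted p = 2.2e-05, 8.1e-05 and 6e-04). Fcna, a ficolin that binds sugars, and the carbonyl reductase Cbr2 fell in LU by 0.91 and 0.61 (adjusted p = 0.00043 and 0.00021) and did not pass in HFD against ND (adjusted p = 0.052 and 0.17). Ltc4s, the leukotriene C4 synthase, was the exception in LU against ND, at 0.57 (adjusted p = 2e-04).

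Markers of macrophages in general were mostly still above ND in LU. Of 18 measured markers, 17 rose with the HFD (median 1.22) and 18 fell in LU relative to HFD (median -0.58). Against ND, 15 were higher in LU and 1 was lower (median 0.56). Of all named genes 25.2% rose with the HFD, and 19.7% rose and 18.2% fell in LU relative to HFD. In LU against ND 21.1% of all named genes were higher and 18.6% lower. Adgre1, the F4/80 antigen, was at 10.78, 12.44 and 11.64 in ND, HFD and LU, with 0.85 in LU against ND, where the 7 receptor genes had -1.43 to -0.28. Cd14, the co-receptor for lipopolysaccharide, was the marker that was lower in LU than in ND, at -0.53. Of 12 measured genes of lipid-associated macrophages, 11 rose with the HFD (median 1.36). In LU 8 fell and 1 rose relative to HFD, and 10 were above ND and none below. Trem2, a lipid receptor, and Mmp12, the macrophage elastase, were 2.88 and 3.30 above ND in LU. With genes not above background in ND set to their bound, the median of this list in LU against ND was 0.75 in place of 1.07.

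**Figure D4:**
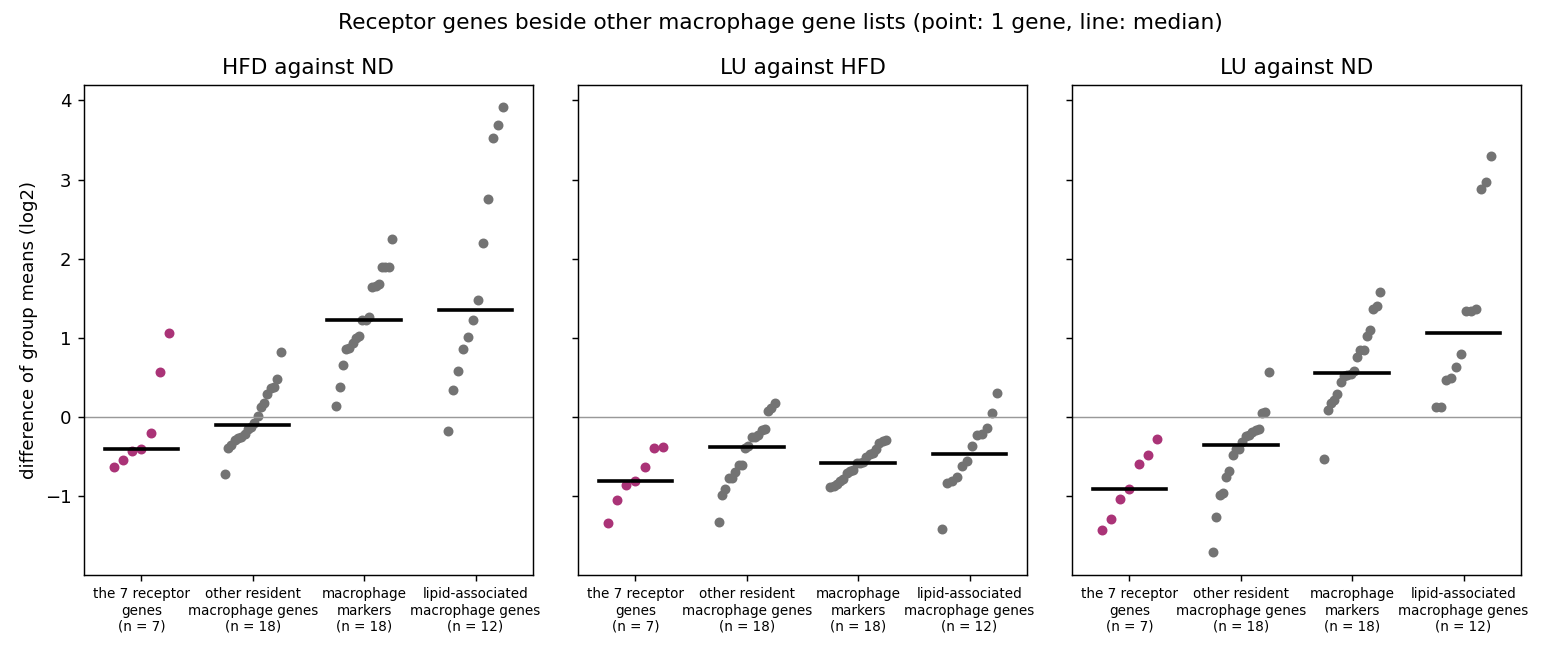
Differences of group means on the log2 scale, with 1 point per gene and a line at the median, for the 7 receptor genes, other resident macrophage genes, macrophage markers and lipid-associated macrophage genes in the 3 comparisons. In LU against ND the medians are -0.91 and -0.36 for the receptor and resident genes and 0.56 and 1.07 for the other 2 lists.

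Of 16 measured scavenger receptors outside the set, 5 rose and none fell with the HFD, where 25.2% and 27.7% of all named genes did, so the count that rose was near the general share. In LU 2 rose and 6 fell relative to HFD, where 19.7% and 18.2% of all named genes did. Msr1, the class A scavenger receptor of macrophages, rose by 0.43 with the HFD (adjusted p = 0.00014 by limma) and fell by 0.41 in LU (adjusted p = 0.00054), which left it at 0.02 in LU against ND. Cd36, the fatty acid translocase, rose by 0.61 in LU against HFD (adjusted p = 9.4e-05). Of 16 other C-type lectin genes, 9 rose and 3 fell with the HFD, and 9 fell and none rose in LU relative to HFD. Clec4d, an activating lectin that binds mycobacterial glycolipid, rose by 1.87 with the HFD (adjusted p = 2.3e-08) and fell by 0.51 in LU (adjusted p = 0.0014), and was 1.35 above ND in LU. Clec7a, the beta-glucan receptor Dectin-1, rose by 1.74 (adjusted p = 1.8e-06) and was at -0.23 in LU against HFD (adjusted p = 0.27).

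Genes that act with the receptors were measured in part, and C3, from which the ligands of VSIG4 are cut, was not analysed here. For CD163, haptoglobin (Hp) rose by 0.77 with the HFD (adjusted p = 1.2e-06 by limma), and heme oxygenase 1 (Hmox1), which breaks down the heme that CD163 brings in, by 1.02 (adjusted p = 9.4e-05), while Cd163 itself was lower. Adam17, the protease that sheds CD163 from the cell surface, rose by 0.60 with the HFD (adjusted p = 2e-05) and fell by 0.42 in LU (adjusted p = 0.00073). The iron exporter Slc40a1 fell by 0.37 in LU against HFD (adjusted p = 0.0034). Of 12 genes of hemoglobin and heme handling, 9 rose and 1 fell with the HFD, and 1 rose and 3 fell in LU relative to HFD (5 fell when only these groups were fitted). Of all named genes 25.2% rose and 27.7% fell with the HFD. In LU relative to HFD 19.7% rose and 18.2% fell, so the heme counts in LU were near the general share. For VSIG4, C1qb and C1qc, subunits of the complement component that starts the classical pathway, rose by 1.21 and 1.15 with the HFD (adjusted p = 8.5e-07 and 7.8e-08 by limma). In LU they fell by 0.96 and 1.07 (adjusted p = 4.9e-05 and 5.6e-06) and were then at 0.25 and 0.08 against ND (adjusted p = 0.059 and 0.39). Of 13 genes for C3 receptors, C1q and complement regulators, 11 rose with the HFD and 9 fell in LU relative to HFD. For FOLR2, 7 genes of folate transport and use gave 2 that rose and 2 that fell with the HFD and 2 that fell in LU relative to HFD, numbers near those that the shares over all named genes give (25.2%, 27.7% and 18.2%). Those that fell in LU were Mthfd2, a mitochondrial enzyme of folate metabolism, at -0.51 (adjusted p = 0.00033), and the thymidylate synthase Tyms at -0.33 (adjusted p = 0.0011).

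Of 14 measured genes of alternative activation and glucocorticoid response, signals known to act on some of these receptors, 5 rose and 5 fell with the HFD, where 25.2% and 27.7% of all named genes did. In LU 1 rose and 5 fell relative to HFD, where 19.7% and 18.2% did. Fkbp5, which glucocorticoids induce, as they do CD163 in human monocytes, fell by 0.35 in LU relative to HFD (adjusted p = 0.0059 by limma). Chil3, a chitinase-like protein of alternatively activated macrophages, was at least 1.69-fold higher in HFD than in ND, where no array detected it (adjusted p = 1.6e-05). In LU it fell by 0.55 (adjusted p = 0.0023). Irf4, a factor of alternative activation, was at 9.47, 11.34 and 9.89 on the ND arrays, against means of 8.67 ± 0.08 (SD, n = 3) in HFD and 8.47 ± 0.04 in LU. The ND arrays were widely scattered, with an SD of 0.98, and the fall with the HFD was 1.57 with all arrays (adjusted p = 0.0022 by limma) and 1.01 without ND replicate 2.

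Markers of some other cell types moved in the same direction as the 7 genes in some of the comparisons, and their part in these differences was not tested. Of all named genes 25.2% rose and 27.7% fell with the HFD, and 19.7% rose and 18.2% fell in LU relative to HFD. All 5 measured lymphatic endothelial markers, Lyve1 included, fell in LU relative to HFD (median -0.81), while 1 rose and 1 fell with the HFD. With background correction only 3 of the 5 passed as lower in LU. The calls of the markers Ccl21a and Reln were lost without HFD replicate 1, LU replicate 2 or LU replicate 3. The summed signal of the 5 lymphatic markers, taken to log2 after summing, was 13.33 to 13.81 in ND, 13.49 to 13.88 in HFD and 12.85 to 13.01 in LU. Such sums, given in the same way below, are dominated by the brightest genes of a list. Of 9 mast cell markers 7 fell in LU relative to HFD (median -0.78) and 1, Hdc, rose, while 1 rose and 1 fell with the HFD, with summed signals of 12.78 to 13.01 in ND, 12.78 to 13.07 in HFD and 12.54 to 12.58 in LU. Hdc was the brightest of the mast cell markers in LU, at a mean of 11.08, so the sum hides part of the falls. The mast cell proteases Cpa3 and Mcpt4 were not detected on any LU array. Of 6 mesothelial markers 4 fell with the HFD, and 3 fell and 1 rose in LU relative to HFD, with summed signals of 12.14 to 12.20, 11.64 to 11.89 and 11.51 to 11.58 in ND, HFD and LU. The 8 vascular endothelial markers did not pass in LU against HFD (median -0.04). Of 8 dendritic cell markers, 3 rose and 3 fell with the HFD, and 2 rose and 3 fell in LU relative to HFD. For so few genes these counts were not far from the shares over all named genes. The summed signals of these markers were 12.44 to 12.61 in ND, 12.66 to 12.79 in HFD and 12.46 to 12.52 in LU. Of 9 adipocyte markers 7 fell and 1 rose with the HFD (median -0.32), and 6 rose and none fell in LU relative to HFD, with summed signals of 17.64 to 17.73 in ND, 17.61 to 17.68 in HFD and 17.74 to 17.76 in LU. Of the 3 measured T cell markers, 2 fell in LU relative to HFD, and B cell markers were not analysed here.

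The genes with the most similar profile to each of the 7 over all 9 arrays were sought among 8463 other named genes by Pearson's r, as a description. For Cd163 they were Wdr92 (r = 0.99), the mesothelial uroplakin gene Upk3b (r = 0.98) and Rnf170 (r = 0.98). Cd209a was most like Fcrls, an Fc receptor-like gene of macrophages, and again Upk3b, with Pcmt1 next (r = 0.98 for each). Cd209b was most like Stk17b (r = 0.99), Hpgd, which breaks down prostaglandins (r = 0.98), and Hnrnpll (r = 0.98). The profile of Cd209d matched Lgals2, a galectin near the background here, Upk1b, another uroplakin of mesothelium, and Slpi, a protease inhibitor (r = 0.99 for each). Psip1, Pcmt1 and Slc35a1 stood closest to Cd209f (r = 0.98, 0.98 and 0.97). For Folr2 the closest were Mgp, the matrix Gla protein (r = 0.99), Cd300ld3 (r = 0.99) and Lhfp (r = 0.98). For Vsig4 they were Niban1 (r = 0.99), Cyth3 (r = 0.98) and Qpct, glutaminyl cyclase (r = 0.98). No gene was among the closest 3 of both a gene that stepped down and of Folr2 or Vsig4. The different orders of the groups in the 7 genes fixed this in advance. The differences of the similar genes follow from how they were sought and were not tested.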

How the data were processed

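The authors deposited the linear signal intensity of 45281 probes on each of 9 Illumina arrays, with a detection p-value per signal, before normalization. Also deposited were log2 values for 17128 of these probes after quantile normalization by the authors, in a pair of equal tables. How those probes were chosen is not given in the sources used here. The intensities of all probes were quantile-normalized and log2-transformed, keeping 20558 probes that 3 or more arrays detected at p under 0.05. Genes were named from the platform table, updated through Entrez numbers, and that table covers the probes of the log2 table alone (12300 probes kept, 8699 genes). A gene with several probes was represented by the brightest. The 3 diets entered 1 linear model (limma 3.58.1, R 4.3.3) with two-sided tests and Benjamini-Hochberg adjustment over the probes kept. Where no array of a group detected a gene, the fold change is a lower bound against the weakest detected signal of those arrays.

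The members and gene lists were chosen with earlier results of these data known. Named genes are the 7 receptors, the 3 genes most like each, the other Cd209 genes and Folr1, up to 4 genes of a list with the largest differences past the threshold, and defining markers. Further genes named for their role as ligand, partner or contrast were chosen after their values were seen. The fit was tested on simulated data. Alternatives covered background correction, scaling, the authors' table, probe filters, the replicate number as a block, a trend in the spread, other tests and leaving out each array. Arrays with the same replicate number did not deviate together (r of -0.1 to 0.09). The files name no slide. The number of arrays limits the precision.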

Additional observations from a re-analysis of the deposited data

How the results depend on the processing

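All 303 recomputed differences of the 7 receptor genes, under other settings and probes, kept their sign, and 287 moved by less than the SD between replicates. Part of them could not move, since fitting only the groups compared, the block, the trend and the probe filters leave a difference of means unchanged. The 16 that moved more came from background correction with neqc, where Cd209a was -0.42, -1.01 and -1.43 and Vsig4 1.42, -1.86 and -0.45 in the order HFD to ND, LU to HFD and LU to ND, and from the dimmer Cd209b probes. Limma's call of Vsig4 in LU against ND was lost with neqc, median scaling, or without any 1 of ND replicates 1 and 2 and LU replicates 1, 2 and 3 (-0.40 to -0.21 without 1 array), that of Cd209a in HFD against ND without ND replicate 3 or HFD replicate 2 (-0.25 to -0.17), and that of Cd163 in LU against HFD without LU replicate 2 (-0.45 to -0.27). By the rank product of the methods 944, 909 and 829 probes differed in this order of comparisons, with 2, 5 and 5 of the 7 genes among them. It did not call Cd163, Cd209a, Cd209d, Cd209f and Folr2 in HFD against ND and Cd163 and Cd209a in LU against HFD. In LU against ND it did not call Folr2 and Vsig4. A fold change of at least 1.5 left 1286, 480 and 692 probes, without the receptor genes that the rank product did not call. The methods' t-test after Benjamini-Hochberg left 3750, 4345 and 2079 probes. It did not call Cd163, Cd209a and Folr2 in the first, Cd163 in the second and Folr2 and Vsig4 in the third comparison. With the replicate number as a block 7369, 5469 and 5834 probes passed and no call of the 7 genes changed. Leaving out 1 array gave 6111 to 7671, 3906 to 4947 and 4162 to 6461 probes. Signal over background limits Cd209a, Cd209c, Cd209g and Folr1. Of 1344 counts recomputed for the gene lists, 111 moved by over 1.5 times. No fit with slides as blocks was made, as the files name none.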
